A study of Homo sapiens with 10 samples.

Results

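A set of 31 genes of glucose use was followed through C4-2 prostate cancer cells that express ARRB1 fusions. They encode the isoenzymes of glycolysis, the kinases that set fructose-2,6-bisphosphate, phosphoglucomutases, glucose transporters, enzymes of gluconeogenesis and glycogen synthase. The genes were listed by their role in the pathway, with earlier results of these arrays known, and their probes were found by Entrez gene ID. They made up 31 of the 18665 named genes and 56 of the 48801 probes on the array, and each gene is read below by its main probe, the brightest by its mean on the 10 arrays.

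Glycolysis breaks glucose down to pyruvate in the cytosol, and most of its steps can be run by several isoenzymes whose use differs between tissues. Hexokinase traps glucose inside the cell, phosphofructokinase commits it to the pathway, and pyruvate kinase releases pyruvate at its end. Many of these genes are known targets of hypoxia-inducible factors, and prostate cancer cells are known for a shift of fuel use relative to the normal gland. Gluconeogenesis runs the reversible steps the other way and bypasses the irreversible ones with enzymes of its own, such as pyruvate carboxylase, phosphoenolpyruvate carboxykinase and fructose bisphosphatase.

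C4-2 is an established human prostate cancer line, and total RNA of untreated cells was hybridised to Illumina BeadChips, 1 array a sample. NucARRB1 cells (2 arrays) stably express a humanised synthetic ARRB1 sequence fused to AcGFP and to 3 nuclear localisation sequences. WtARRB1 cells (2 arrays) stably express the same AcGFP fusion without these sequences. GFP cells (3 arrays) are stable transfectants of the empty AcGFP vector, and parental cells (3 arrays) are the untransfected line. The stable lines were made by nucleofection and selected with the drug G418, and no such selection is described for the parental cells. As described, the vector and the selection are therefore shared by GFP and both ARRB1 groups but not by parental cells. All groups were grown in RPMI with serum. The arrays of a group are described as biological replicates, but nothing says that they came from separate cultures or clones, and p-values measure only the spread between these arrays.

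Arrays of a group correlated at 0.982 to 0.992 over all probes, and ARRB1 arrays correlated with control arrays at 0.96 to 0.982. ARRB1, the overexpressed gene, was lower in wtARRB1 than in GFP cells on its main probe (-0.76 ± 0.17, adjusted p = 0.00714) and did not pass in nucARRB1 cells (-0.44 ± 0.17, adjusted p = 0.138). Its log2 levels were 8.29 and 7.70 in nucARRB1 cells, 7.71 and 7.64 in wtARRB1 cells, 8.12, 8.58 and 8.61 in GFP cells, and 8.27, 8.47 and 8.43 in parental cells. Since the constructs carry a synthetic coding sequence, and whether this probe reads it was not tested, the probe does not check the labels. Of 11 markers of luminal prostate cancer lines 9 were measured, with list means of 9.42 to 9.98 on the 10 arrays. EPCAM and KRT18 were bright, while KLK3 lay at group means of 6.28 in nucARRB1, 7.06 in wtARRB1, 6.41 in GFP and 6.67 in parental cells, close to the array median of 6.30. The fibroblast, blood and basal prostate lists had means of 6.05 to 6.41 on every array, and 3 of 4 endothelial markers were near the array median too, while VWF lay between 6.89 and 7.91 and was higher in wtARRB1 than in GFP cells (0.57 ± 0.12, adjusted p = 0.00716). Of the luminal markers TMPRSS2 was higher in nucARRB1 cells (1.40 ± 0.30, adjusted p = 0.00558) and FOLH1 in wtARRB1 cells (1.14 ± 0.19, adjusted p = 0.000875). The part of these markers in the results below was not tested. A single control array stood apart in the genes described here: parental replicate 1 exceeded both other parental arrays by over 0.5 log2 units in 6 of the 31 genes (PFKP, PFKFB4, ALDOC, PGK1, ENO2 and PCK2) and fell short of both by that much in 0. Where a call of the ARRB1 groups changed without that array, for a member of the 31 or a pair of isoforms, this is stated below. In bulk RNA, fewer cells that express a gene cannot be told apart from less of its RNA in each cell.

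In nucARRB1 cells many of the general glycolytic enzymes were lower than in GFP cells, while muscle enolase, a phosphoglucomutase, a glucose transporter and mitochondrial phosphoenolpyruvate carboxykinase were higher. HK1, HK2, GPI, PFKL, PFKFB3, TPI1, GAPDH, PGAM1, ENO1, PKM and PGM2 fell, and ENO3, PGM1, SLC2A12 and PCK2 rose. In wtARRB1 cells HK1, PFKFB3, TPI1, GAPDH, ENO1 and PKM fell, and ENO3, PGM1 and PCK2 rose. All log2 changes are given with their standard error from a limma fit over the 10 arrays, adjusted p-values cover all 48801 probes (Benjamini-Hochberg), and a gene passed at a false discovery rate of 1%.

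Of the 31 genes, 4 were higher, 11 lower and 16 did not pass in nucARRB1 against GFP cells, where 4.97% of all genes were called higher and 5.89% lower. In wtARRB1 against GFP cells 3 were higher, 6 lower and 22 did not pass, where 4.26% of all genes were called higher and 4.7% lower. The median log2 change of the 31 genes was -0.20 in nucARRB1 and -0.23 in wtARRB1 cells, against -0.01 and 0.00 over all genes in the same comparisons. The set of all genes was not matched to the 31 in brightness, so its shares and medians are a rough reference. Only 3 of the 31 had a main probe with a mean under 6.5, near the array median. With each array only shifted to a common median in place of quantile normalisation, the members split into 2 higher and 12 lower in nucARRB1 cells and 2 higher and 8 lower in wtARRB1 cells. Over all genes the same change moved the split to 512 higher and 1316 lower in nucARRB1 cells, against 927 higher and 1100 lower with quantile normalisation, and to 345 higher and 1264 lower in wtARRB1 cells, against 795 higher and 877 lower. Both comparisons use the same 3 GFP arrays, so their calls are not independent of each other.

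The genes that passed in wtARRB1 cells were 9 of the 15 that passed in nucARRB1 cells, and all 9 moved in the same direction in both. The same overlap was not counted over all genes, and the GFP arrays are shared, so this agreement is not read as a trait of the list. HK2, GPI, PFKL, PGAM1, PGM2 and SLC2A12 passed in nucARRB1 cells only, but the difference between the ARRB1 groups was tested directly and 0 of the 31 genes passed it (5 at an unadjusted p under 0.05, limma), where 0.0643% of all genes were called. The log2 difference of nucARRB1 over wtARRB1 cells ran from -0.43 (PCK2) to 0.33 (ENO2), and the 95% intervals of single genes reached from -1.20 to 0.88. No gene of the list is therefore shown to respond differently to the nuclear and the unrestricted fusion, and differences within those intervals were not resolved by these arrays.

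**Figure D1:**
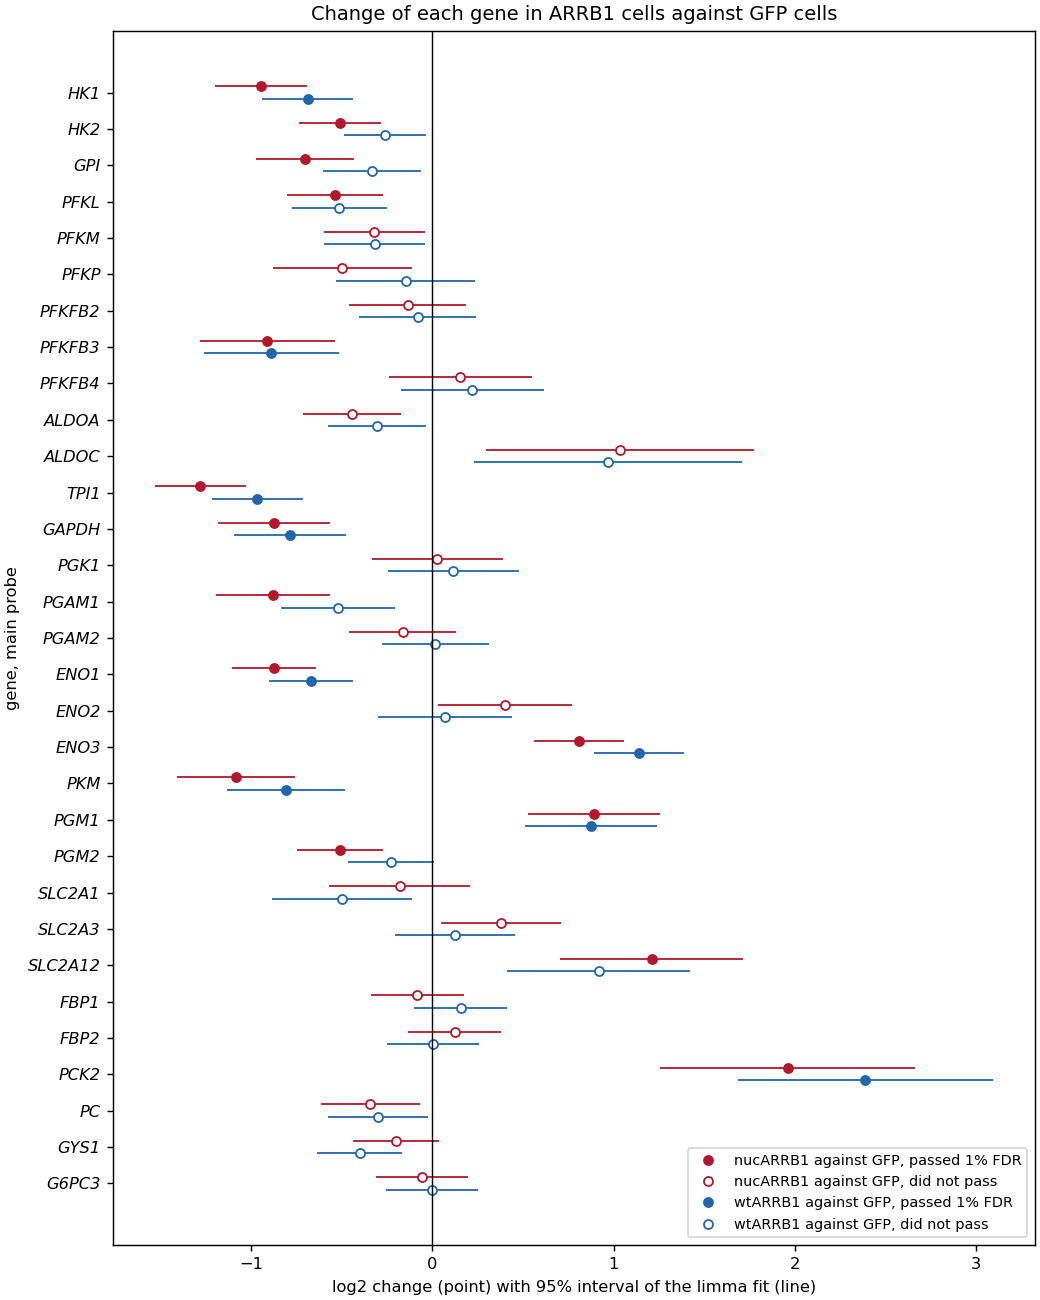
Log2 change of the main probe of each of the 31 genes in nucARRB1 (red) and wtARRB1 (blue) cells against GFP cells, with the 95% interval of the limma fit as a line. Filled points passed a false discovery rate of 1%, and PCK2 lies farthest to the right at 1.96 and 2.39 while TPI1 lies farthest to the left at -1.28 and -0.97.

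Glucose enters through the GLUT transporters, of which SLC2A1 (GLUT1) and SLC2A3 (GLUT3) are the widely used ones and SLC2A12 (GLUT12) is a further member known from insulin-responsive tissues and prostate and breast cancer. SLC2A12 had log2 levels of 8.76 and 7.59 in nucARRB1 cells, 7.87 and 7.90 in wtARRB1 cells, 6.69, 7.09 and 7.12 in GFP cells, and 6.90, 7.19 and 7.35 in parental cells. The ARRB1 arrays were all above the control arrays, with nucARRB1 replicate 1 far above the rest. SLC2A12 rose in nucARRB1 cells (1.21 ± 0.24, adjusted p = 0.00275), but the change was 0.63 without nucARRB1 replicate 1 and no longer passed, nor did it without GFP replicate 1, with median scaling (adjusted p = 0.0127), without normalisation (adjusted p = 0.0106) or against parental cells (1.03 ± 0.24, adjusted p = 0.0134). In wtARRB1 cells its change was 0.92 ± 0.24, adjusted p = 0.0233. SLC2A1 had log2 levels of 9.13 and 8.39 in nucARRB1 cells, 8.39 and 8.50 in wtARRB1 cells, 8.91, 8.99 and 8.92 in GFP cells, and 8.99, 8.42 and 8.63 in parental cells, and its nucARRB1 arrays lay on either side of the GFP arrays. SLC2A1 did not pass in nucARRB1 (-0.18 ± 0.18, adjusted p = 0.753) or wtARRB1 cells (-0.50 ± 0.18, adjusted p = 0.135), and neither did SLC2A3 (0.38 ± 0.16, adjusted p = 0.196 in nucARRB1 and 0.12 ± 0.16, adjusted p = 0.835 in wtARRB1 cells).

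Hexokinases phosphorylate glucose, HK1 as the constitutive isoenzyme of most tissues and HK2 as the inducible one of muscle and many tumours. HK1 had log2 levels of 10.63 and 10.79 in nucARRB1 cells, 11.11 and 10.82 in wtARRB1 cells, 11.68, 11.73 and 11.56 in GFP cells, and 11.37, 11.54 and 11.41 in parental cells. All 4 ARRB1 arrays lay below all 6 control arrays. HK1 fell in nucARRB1 (-0.95 ± 0.12, adjusted p = 6.36e-05) and in wtARRB1 cells (-0.69 ± 0.12, adjusted p = 0.00126), to 0.519 and 0.62 of its GFP level. Its 3 other probes lay at means of 6.08 to 6.24, near the array median, and none of them passed. HK2 had log2 levels of 7.16 and 6.99 in nucARRB1 cells, 7.42 and 7.23 in wtARRB1 cells, 7.60, 7.56 and 7.59 in GFP cells, and 7.33, 7.32 and 7.22 in parental cells, so that its wtARRB1 arrays overlapped the parental ones. HK2 fell in nucARRB1 cells (-0.51 ± 0.11, adjusted p = 0.0046) and changed by -0.26 ± 0.11, adjusted p = 0.206 in wtARRB1 cells. Its second probe, about as bright with a mean of 7.15, gave a change of 0.00 in nucARRB1 cells (adjusted p = 0.998), and against parental cells the main probe gave -0.21 ± 0.11, adjusted p = 0.377.

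Glucose-6-phosphate isomerase, encoded by GPI, makes fructose-6-phosphate, which phosphofructokinase then commits to glycolysis. GPI had log2 levels of 10.95 and 11.12 in nucARRB1 cells, 11.29 and 11.52 in wtARRB1 cells, 11.77, 11.58 and 11.87 in GFP cells, and 12.00, 11.71 and 11.75 in parental cells. The 4 ARRB1 arrays were the lowest 4 of the 10, and GPI fell in nucARRB1 cells (-0.70 ± 0.13, adjusted p = 0.00147) but did not pass in wtARRB1 cells (-0.33 ± 0.13, adjusted p = 0.164). Of the 3 phosphofructokinase subunits, PFKL (liver type) had log2 levels of 7.77 and 7.84 in nucARRB1 cells, 7.89 and 7.77 in wtARRB1 cells, 8.43, 8.34 and 8.27 in GFP cells, and 8.64, 8.29 and 8.25 in parental cells, again with no ARRB1 array within the control range. PFKL fell in nucARRB1 cells (-0.54 ± 0.12, adjusted p = 0.00904) and did not pass in wtARRB1 cells (-0.51 ± 0.12, adjusted p = 0.0146). Without parental replicate 1 it passed in wtARRB1 cells too (adjusted p = 0.00566). The muscle type PFKM had levels of 9.17 and 9.31 in nucARRB1 cells, 9.31 and 9.18 in wtARRB1 cells, 9.73, 9.40 and 9.55 in GFP cells, and 9.34, 9.50 and 9.71 in parental cells. The platelet type PFKP had levels of 9.08 and 9.19 in nucARRB1 cells, 9.51 and 9.46 in wtARRB1 cells, 9.61, 9.48 and 9.81 in GFP cells, and 10.15, 9.41 and 9.38 in parental cells. Neither passed, with PFKM at -0.32 ± 0.13, adjusted p = 0.186 in nucARRB1 and -0.32 ± 0.13, adjusted p = 0.203 in wtARRB1 cells, and PFKP at -0.50 ± 0.18, adjusted p = 0.122 in nucARRB1 and -0.15 ± 0.18, adjusted p = 0.827 in wtARRB1 cells. With single arrays left out PFKP still did not pass in nucARRB1 cells (lowest adjusted p = 0.0115).

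The PFKFB enzymes make and remove fructose-2,6-bisphosphate, the activator of phosphofructokinase, and PFKFB3 is the one with the strongest bias to synthesis. PFKFB3 had log2 levels of 7.66 and 8.49 in nucARRB1 cells, 8.08 and 8.11 in wtARRB1 cells, 8.92, 8.98 and 9.06 in GFP cells, and 8.87, 9.20 and 8.99 in parental cells. Every ARRB1 array lay below every control array, and nucARRB1 replicate 1 lay lowest. PFKFB3 fell to 0.532 of its GFP level in nucARRB1 cells (-0.91 ± 0.18, adjusted p = 0.00234) and to 0.54 in wtARRB1 cells (-0.89 ± 0.18, adjusted p = 0.00355). A second, dimmer PFKFB3 probe with a mean of 7.15 did not pass, at -0.15 ± 0.11, adjusted p = 0.583 in nucARRB1 and -0.08 ± 0.11, adjusted p = 0.855 in wtARRB1 cells. PFKFB4 (0.15 ± 0.19, adjusted p = 0.812 in nucARRB1 and 0.22 ± 0.19, adjusted p = 0.697 in wtARRB1 cells) and PFKFB2 (-0.14 ± 0.15, adjusted p = 0.786 in nucARRB1 and -0.08 ± 0.15, adjusted p = 0.9 in wtARRB1 cells) did not pass.

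Aldolase splits fructose-1,6-bisphosphate, ALDOA being the muscle and general isoenzyme and ALDOC the brain one. ALDOC had log2 levels of 11.37 and 10.65 in nucARRB1 cells, 10.81 and 11.07 in wtARRB1 cells, 9.91, 10.00 and 10.01 in GFP cells, and 11.73, 10.01 and 10.13 in parental cells. The 4 ARRB1 arrays exceeded all 3 GFP arrays and parental replicates 2 and 3, but parental replicate 1 was the highest of all 10. ALDOC did not pass in nucARRB1 (1.03 ± 0.35, adjusted p = 0.0877) or wtARRB1 cells (0.97 ± 0.35, adjusted p = 0.127). Without parental replicate 1, which is in neither of the groups compared, ALDOC against GFP cells had adjusted p-values of 0.000543 in nucARRB1 and 0.0012 in wtARRB1 cells. ALDOA had levels of 11.89 and 11.96 in nucARRB1 cells, 12.09 and 12.03 in wtARRB1 cells, 12.41, 12.36 and 12.33 in GFP cells, and 12.88, 12.49 and 12.44 in parental cells, with the ARRB1 arrays lowest, and gave -0.44 ± 0.13, adjusted p = 0.0355 in nucARRB1 and -0.31 ± 0.13, adjusted p = 0.21 in wtARRB1 cells. Against parental cells ALDOA was lower in nucARRB1 cells (-0.68 ± 0.13, adjusted p = 0.00286). Its second probe, with a mean of 12.06, gave -0.55 (adjusted p = 0.0143) in nucARRB1 and -0.29 (adjusted p = 0.295) in wtARRB1 against GFP cells. Against parental cells that probe was lower in both groups, at -0.92 (adjusted p = 0.000489) in nucARRB1 and -0.66 (adjusted p = 0.00803) in wtARRB1 cells.

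TPI1, triosephosphate isomerase, which interconverts the aldolase products, showed the largest fall of the list in both ARRB1 groups. It had log2 levels of 12.55 and 12.64 in nucARRB1 cells, 12.78 and 13.04 in wtARRB1 cells, 13.87, 13.77 and 13.99 in GFP cells, and 13.55, 13.75 and 13.65 in parental cells. The highest ARRB1 array lay below the lowest control array. TPI1 fell to 0.412 of its GFP level in nucARRB1 cells (-1.28 ± 0.12, adjusted p = 4.22e-06) and to 0.512 in wtARRB1 cells (-0.97 ± 0.12, adjusted p = 7.17e-05), and its second probe fell in both too (-1.16 and -0.91). GAPDH, glyceraldehyde-3-phosphate dehydrogenase and a gene often used as a loading reference, had levels of 12.68 and 13.20 in nucARRB1 cells, 13.00 and 13.05 in wtARRB1 cells, 13.86, 13.66 and 13.92 in GFP cells, and 13.87, 13.59 and 13.63 in parental cells. Its ARRB1 arrays also stayed below all control arrays. GAPDH fell in nucARRB1 (-0.87 ± 0.15, adjusted p = 0.000732) and wtARRB1 cells (-0.79 ± 0.15, adjusted p = 0.00215), with 2 of its 3 probes called in each. PGK1, phosphoglycerate kinase and a well-known hypoxia target, gave 0.03 ± 0.17, adjusted p = 0.973 in nucARRB1 and 0.11 ± 0.17, adjusted p = 0.87 in wtARRB1 cells, and its levels ran from 11.23 to 12.24 over the 10 arrays with the highest on parental replicate 1. Its second probe, with a mean of 9.55, did not pass either, at -0.50 ± 0.27, adjusted p = 0.376 in nucARRB1 and 0.06 ± 0.27, adjusted p = 0.967 in wtARRB1 cells.

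Phosphoglycerate mutase follows, with PGAM1 as the general and PGAM2 as the muscle isoenzyme. PGAM1 had log2 levels of 10.07 and 10.42 in nucARRB1 cells, 10.34 and 10.86 in wtARRB1 cells, 11.10, 10.99 and 11.28 in GFP cells, and 11.28, 11.29 and 11.23 in parental cells. All ARRB1 arrays lay below all control arrays, wtARRB1 replicate 2 being the closest to them. PGAM1 fell in nucARRB1 cells on both of its probes (-0.88 ± 0.15, adjusted p = 0.000814 on the main one). In wtARRB1 cells the main probe did not pass (-0.52 ± 0.15, adjusted p = 0.0399) while the second did (-0.64, adjusted p = 0.00669). PGAM1 has a near-identical copy, PGAM4, so its probes may read both. PGAM2, whose probe lay near the array median at a mean of 6.14, gave -0.16 ± 0.14, adjusted p = 0.682 in nucARRB1 and 0.02 ± 0.14, adjusted p = 0.984 in wtARRB1 cells.

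Enolase makes phosphoenolpyruvate, and its isoforms moved in opposite directions: ENO1, the general form, fell, and ENO3, the muscle form, rose, while ENO2, the neuronal form, did not pass. ENO1 had log2 levels of 13.41 and 13.58 in nucARRB1 cells, 13.73 and 13.68 in wtARRB1 cells, 14.30, 14.31 and 14.50 in GFP cells, and 14.25, 14.24 and 14.19 in parental cells. ENO3 had log2 levels of 9.08 and 9.12 in nucARRB1 cells, 9.55 and 9.32 in wtARRB1 cells, 8.24, 8.46 and 8.17 in GFP cells, and 8.95, 8.95 and 8.85 in parental cells. ENO1 arrays of both ARRB1 groups lay below all controls, and ENO3 arrays above all controls. ENO1 fell in nucARRB1 (-0.87 ± 0.11, adjusted p = 5.66e-05) and wtARRB1 cells (-0.67 ± 0.11, adjusted p = 0.000745), but passed in neither without normalisation (adjusted p = 0.0176 in nucARRB1 and 0.0153 in wtARRB1 cells). ENO3 rose 1.75-fold in nucARRB1 (0.81 ± 0.12, adjusted p = 0.000221) and 2.21-fold in wtARRB1 cells (1.14 ± 0.12, adjusted p = 1.69e-05). The 3 GFP arrays were, however, also the lowest of the controls in ENO3. GFP over parental cells gave -0.63 ± 0.10, adjusted p = 0.0284, the lowest adjusted p of the 31 genes in that comparison, and against parental cells ENO3 did not pass in nucARRB1 (0.18 ± 0.12, adjusted p = 0.57) or wtARRB1 cells (0.52 ± 0.12, adjusted p = 0.0151). The second ENO3 probe, with a mean of 7.05, gave 0.26 ± 0.13, adjusted p = 0.353 in nucARRB1 and 0.56 ± 0.13, adjusted p = 0.0125 in wtARRB1 cells. ENO2 had levels of 6.96 and 6.81 in nucARRB1 cells, 6.72 and 6.38 in wtARRB1 cells, 6.32, 6.53 and 6.59 in GFP cells, and 7.00, 6.30 and 6.40 in parental cells and gave 0.40 ± 0.17, adjusted p = 0.228 in nucARRB1 and 0.07 ± 0.17, adjusted p = 0.935 in wtARRB1 cells.

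The promoter windows of these opposed isoforms are shown because the list holds many textbook targets of hypoxia-inducible factors and of MYC, whose sites have a known core. Each window holds 250 bases before and 50 bases after a RefSeq transcription start on GRCh38.p14, read 5′ to 3′ on the strand of the gene. The motifs, 4 in all, were searched on both strands: ACGTG and GCGTG (core of the hypoxia response element), CACGTG (the E-box, which contains ACGTG) and TGATGNAA (core of the response element of the CCAAT enhancer and ATF factors). Capitals mark every match. The RefSeq table gave 56 windows for 29 of the 31 genes, and none were taken for PFKFB2 and SLC2A3.
ENO1 (chr1:8878637-8878936, minus strand): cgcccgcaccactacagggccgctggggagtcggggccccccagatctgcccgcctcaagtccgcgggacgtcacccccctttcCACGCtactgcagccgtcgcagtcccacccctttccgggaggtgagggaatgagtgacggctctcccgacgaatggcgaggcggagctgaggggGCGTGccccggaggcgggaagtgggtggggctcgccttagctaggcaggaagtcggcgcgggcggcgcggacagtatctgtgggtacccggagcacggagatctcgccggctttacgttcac
ENO3, first start (chr17:4950302-4950601, plus strand): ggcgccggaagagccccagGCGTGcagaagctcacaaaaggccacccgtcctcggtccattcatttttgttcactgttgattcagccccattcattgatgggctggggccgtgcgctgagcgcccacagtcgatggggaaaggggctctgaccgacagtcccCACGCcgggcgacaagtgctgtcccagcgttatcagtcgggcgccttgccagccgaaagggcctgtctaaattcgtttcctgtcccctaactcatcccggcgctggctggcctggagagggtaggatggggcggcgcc
ENO3, second start (chr17:4950869-4951168, plus strand): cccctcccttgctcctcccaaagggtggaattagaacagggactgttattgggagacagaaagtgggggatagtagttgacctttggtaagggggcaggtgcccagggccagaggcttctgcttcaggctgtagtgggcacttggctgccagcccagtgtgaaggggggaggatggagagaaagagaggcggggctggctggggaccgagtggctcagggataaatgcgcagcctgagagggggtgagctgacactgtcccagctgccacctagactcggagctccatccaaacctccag
PGM2 (chr4:37826436-37826735, plus strand): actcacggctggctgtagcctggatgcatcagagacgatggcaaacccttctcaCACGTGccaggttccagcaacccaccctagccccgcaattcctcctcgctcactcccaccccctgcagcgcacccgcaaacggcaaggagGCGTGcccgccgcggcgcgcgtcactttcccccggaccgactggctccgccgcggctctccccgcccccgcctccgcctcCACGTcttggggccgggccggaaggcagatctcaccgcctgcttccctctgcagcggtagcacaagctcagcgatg
PGM1, the start with matches (chr1:63593559-63593858, plus strand): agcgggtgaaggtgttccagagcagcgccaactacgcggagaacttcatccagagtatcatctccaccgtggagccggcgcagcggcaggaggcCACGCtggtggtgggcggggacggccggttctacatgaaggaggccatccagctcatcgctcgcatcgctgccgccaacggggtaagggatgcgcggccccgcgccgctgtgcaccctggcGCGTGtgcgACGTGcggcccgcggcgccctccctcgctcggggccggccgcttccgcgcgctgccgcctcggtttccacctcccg
PCK2 (chr14:24094061-24094360, plus strand): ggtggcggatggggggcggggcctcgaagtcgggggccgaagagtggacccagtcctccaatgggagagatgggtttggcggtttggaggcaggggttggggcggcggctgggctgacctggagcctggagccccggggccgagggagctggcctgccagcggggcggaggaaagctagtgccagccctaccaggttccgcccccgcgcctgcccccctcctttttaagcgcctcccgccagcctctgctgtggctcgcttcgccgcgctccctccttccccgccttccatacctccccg
ENO1 held 2 matches to GCGTG, as did the first ENO3 window, while the second ENO3 window and the PCK2 window held none of the 4 motifs. PGM2 held 3 matches to ACGTG, of which 2 are the strands of 1 CACGTG, and 1 to GCGTG. The PGM1 window shown held 1 match to ACGTG and 2 to GCGTG, and the other PGM1 windows held none of the 4 motifs. Over all members, ACGTG was found in 21 of 56 windows (37.5%), against 21.4% of the 35116 windows of all genes. GCGTG was found in 20 of 56 (35.7%), against 36.5% of all windows. CACGTG was in 9 of 56 (16.1%) against 7.26%, and TGATGNAA in 2 of 56 (3.57%) against 3.62%. Windows of neighbouring starts of a gene overlap and are counted each, so these shares are a description, and a match is not a site.

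**Figure D2:**
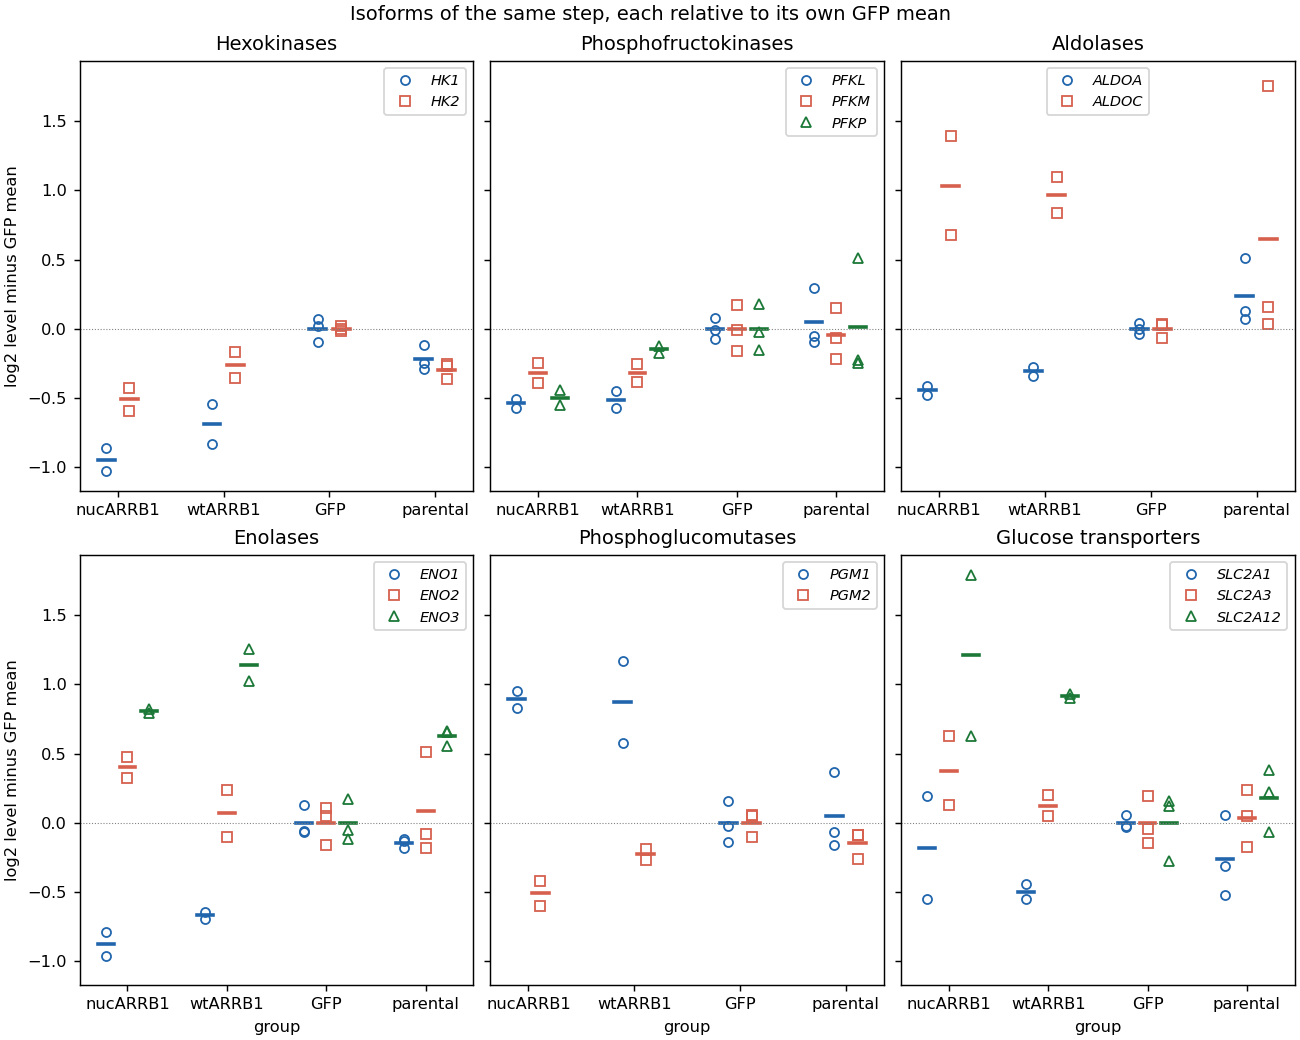
Log2 level of each isoform minus its own mean over the 3 GFP arrays, by group, with 1 symbol per array and a bar at the group mean. ENO1 lies below 0 and ENO3 above 0 in both ARRB1 groups, PGM2 and PGM1 part in the same way, and the high ALDOC and ENO2 points among parental cells are replicate 1.

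Pyruvate kinase, encoded by PKM, closes the pathway. PKM had log2 levels of 10.10 and 9.97 in nucARRB1 cells, 9.98 and 10.64 in wtARRB1 cells, 11.16, 11.16 and 11.02 in GFP cells, and 11.13, 10.92 and 10.95 in parental cells. The ARRB1 arrays lay below all controls, with wtARRB1 replicate 2 between the rest and the controls. PKM fell to 0.472 of its GFP level in nucARRB1 cells (-1.08 ± 0.15, adjusted p = 0.000182) and to 0.571 in wtARRB1 cells (-0.81 ± 0.15, adjusted p = 0.00259). Of its 3 probes 2 passed in each comparison, and the third gave -0.80 ± 0.19, adjusted p = 0.01 in nucARRB1 and -0.34 ± 0.19, adjusted p = 0.432 in wtARRB1 cells. Whether these probes tell the M1 from the M2 transcript was not tested.

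Phosphoglucomutases interconvert glucose-1-phosphate and glucose-6-phosphate and so join glycogen to glycolysis, PGM1 being the main form and PGM2 one that favours phosphopentoses. PGM1 had log2 levels of 10.39 and 10.51 in nucARRB1 cells, 10.73 and 10.14 in wtARRB1 cells, 9.54, 9.42 and 9.72 in GFP cells, and 9.93, 9.50 and 9.40 in parental cells. PGM2 had log2 levels of 8.25 and 8.43 in nucARRB1 cells, 8.59 and 8.66 in wtARRB1 cells, 8.75, 8.91 and 8.91 in GFP cells, and 8.60, 8.77 and 8.77 in parental cells. PGM1 was higher on every ARRB1 array than on any control array, although parental replicate 1 (9.93) came near wtARRB1 replicate 2 (10.14). PGM1 rose 1.86-fold in nucARRB1 (0.89 ± 0.17, adjusted p = 0.00236) and 1.83-fold in wtARRB1 cells (0.88 ± 0.17, adjusted p = 0.0034), and it was also higher against parental cells (0.84 ± 0.17, adjusted p = 0.00561 in nucARRB1 and 0.83 ± 0.17, adjusted p = 0.00859 in wtARRB1 cells). Without normalisation, and with median scaling, it did not pass in either. PGM2 fell in nucARRB1 cells (-0.51 ± 0.11, adjusted p = 0.00612), gave -0.23 ± 0.11, adjusted p = 0.331 in wtARRB1 cells and did not pass in nucARRB1 against parental cells (-0.37 ± 0.11, adjusted p = 0.0678).

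On the side of gluconeogenesis, PCK2, the mitochondrial phosphoenolpyruvate carboxykinase and a known target of ATF4, showed the largest change of the list. It had log2 levels of 11.73 and 12.53 in nucARRB1 cells, 12.71 and 12.40 in wtARRB1 cells, 10.32, 10.11 and 10.08 in GFP cells, and 11.68, 10.24 and 10.11 in parental cells. All ARRB1 arrays exceeded all controls, but parental replicate 1 (11.68) almost reached nucARRB1 replicate 1 (11.73) and stood well above the other parental arrays. PCK2 rose 3.89-fold in nucARRB1 (1.96 ± 0.33, adjusted p = 0.000821) and 5.23-fold in wtARRB1 cells (2.39 ± 0.33, adjusted p = 0.000208). All 3 PCK2 probes rose in both groups, the other 2 by 1.63 and 0.92 in nucARRB1 and by 2.00 and 1.02 in wtARRB1 cells. Against parental cells the main probe passed in wtARRB1 (1.88 ± 0.33, adjusted p = 0.00268) and not in nucARRB1 cells (1.45 ± 0.33, adjusted p = 0.0123), where both other probes did (adjusted p = 0.00265 and 0.0019). Without parental replicate 1 it passed in both, at 1.95 (adjusted p = 2.87e-05) in nucARRB1 and 2.38 (adjusted p = 5.17e-06) in wtARRB1 cells.

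The other enzymes of that branch did not pass. PC, pyruvate carboxylase, gave -0.34 ± 0.13, adjusted p = 0.142 in nucARRB1 and -0.30 ± 0.13, adjusted p = 0.239 in wtARRB1 cells. G6PC3, a ubiquitous glucose-6-phosphatase, gave -0.06 ± 0.12, adjusted p = 0.903 in nucARRB1 and -0.00 ± 0.12, adjusted p = 0.997 in wtARRB1 cells. FBP1 and FBP2, the fructose bisphosphatases, had probes near the array median at means of 6.29 and 6.34. FBP1 gave -0.08 ± 0.12, adjusted p = 0.854 in nucARRB1 and 0.16 ± 0.12, adjusted p = 0.647 in wtARRB1 cells, and FBP2 gave 0.12 in nucARRB1 and 0.00 in wtARRB1 cells. GYS1, the muscle type glycogen synthase, gave -0.20 ± 0.11, adjusted p = 0.415 in nucARRB1 and -0.40 ± 0.11, adjusted p = 0.0337 in wtARRB1 cells.

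**Figure D3:**
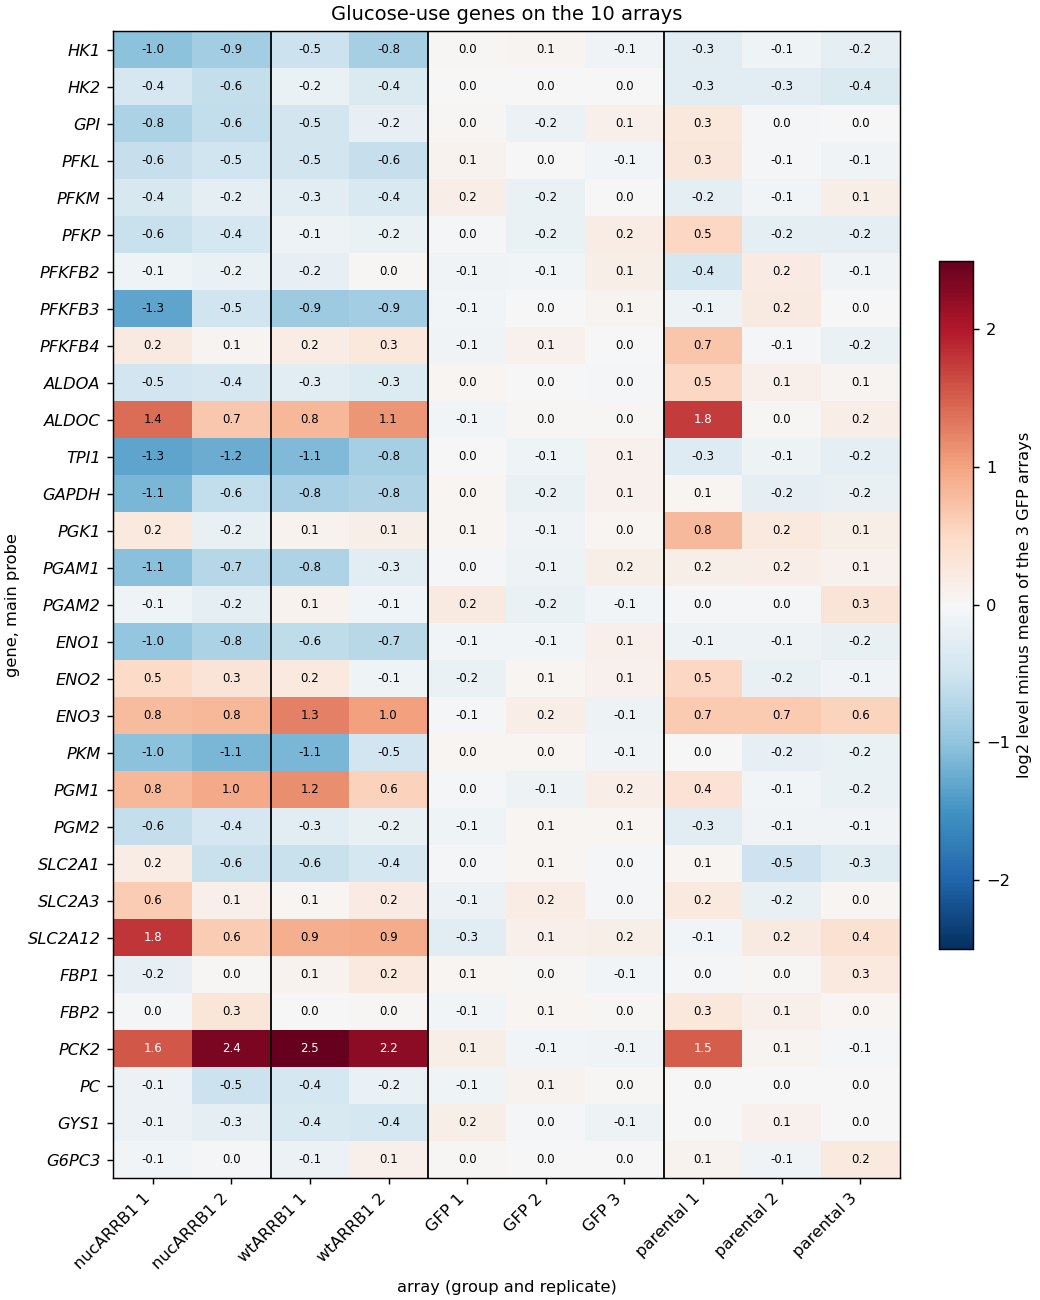
Log2 level of the main probe of each of the 31 genes on each array, minus the mean of the 3 GFP arrays (red higher, blue lower, values printed in the cells). PCK2 is high on all 4 ARRB1 arrays and on parental replicate 1, and HK1, TPI1, GAPDH, ENO1 and PKM are low on the 4 ARRB1 arrays.

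The genes called in nucARRB1 cells had mean log2 levels of 7.34 to 14.02 on their main probe. Of the 56 probes 14 had a mean under 6.5, near the array median, and 0 of these passed by limma in nucARRB1 or in wtARRB1 cells (1 and 1 at an unadjusted p under 0.05), among them 3 main probes (PGAM2, FBP1 and FBP2). At that level a change may be understated, and the files used here give no detection values. Of the 56 probes 6 were called higher and 15 lower in nucARRB1 cells, where 2.87% and 3.03% of all probes were called, and 5 higher and 10 lower in wtARRB1 cells, where 2.4% and 2.32% were.

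**Figure D4:**
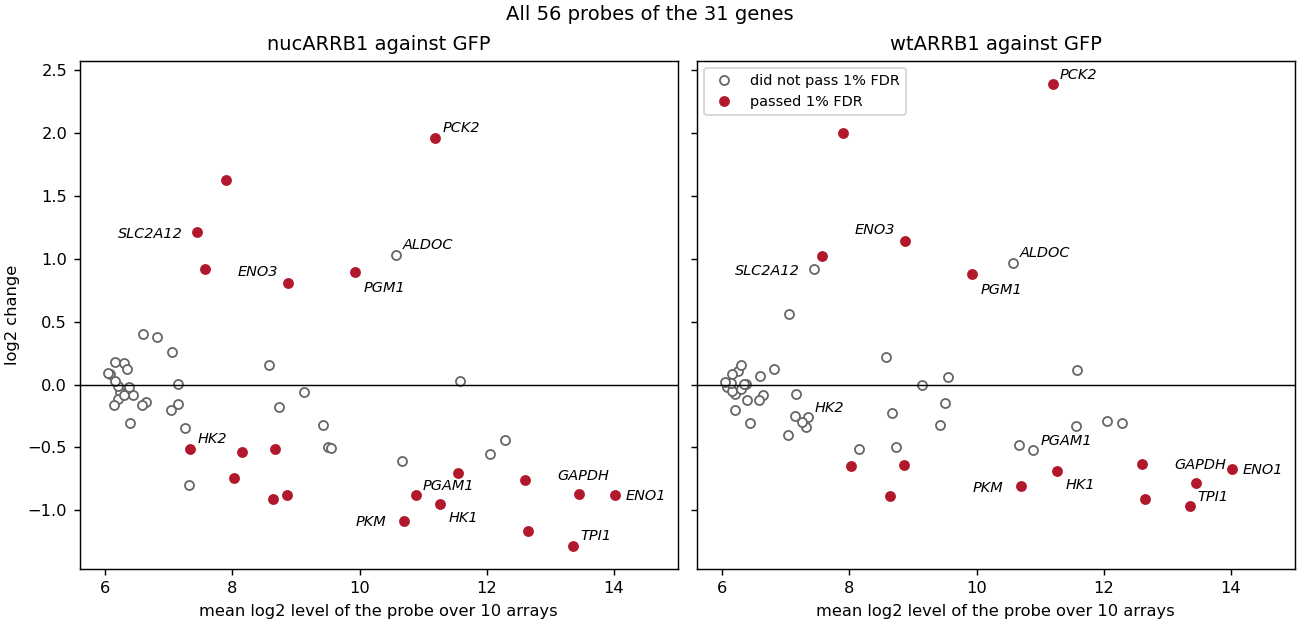
Log2 change against GFP cells of all 56 probes of the 31 genes over the mean log2 level of the probe, for nucARRB1 (left) and wtARRB1 cells (right), with filled red points for probes that passed a false discovery rate of 1% and labels on selected main probes. Probes with a mean under 6.5 lie close to 0, and the filled points begin above that level.

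Within-array differences between isoforms of 1 step were compared over the 4 ARRB1 and the 6 control arrays by an exact two-sided permutation test, which removes any shift common to an array. A difference between probes of different genes has no scale of its own, so only its change between groups is given. Of 17 pairs 12 had an exact p under 0.05 and 11 an adjusted p under 0.05, with Benjamini-Hochberg over the 17 pairs. The smallest p that 4 against 6 arrays can give is 0.00952. A group of 7 pairs did not overlap between ARRB1 and control arrays and reached that value (exact p = 0.00952, adjusted p = 0.0231 each). These were ENO3 over ENO1 (change of 1.36), SLC2A12 over SLC2A1 (1.18), SLC2A12 over SLC2A3 (0.74), HK2 over HK1 (0.47), SLC2A3 over SLC2A1 (0.44), PFKFB3 over PFKFB2 (-0.86) and PGM2 over PGM1 (-1.16). The share of all gene pairs that would separate in this way was not computed. Several of the 17 pairs also share a gene, so the counts of pairs are a description only.

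The ENO3 over ENO1 change was 1.75 against GFP arrays alone and 0.97 against parental arrays alone, and the PGM2 over PGM1 change was -1.25 against GFP and -1.06 against parental arrays alone. ALDOC over ALDOA (1.17, exact p = 0.0286, adjusted p = 0.0442), PFKFB4 over PFKFB3 (1.02, exact p = 0.0191, adjusted p = 0.036) and ENO2 over ENO1 (0.89, exact p = 0.0191, adjusted p = 0.036) passed with an overlap, in each case with parental replicate 1 inside the range of the ARRB1 arrays. Without that array the 3 changes were 1.38, 1.17 and 1.00 (adjusted p = 0.0245 each), and PFKFB4 over PFKFB2 passed too (0.36, adjusted p = 0.0245, against 0.16, adjusted p = 0.691 with it). With other arrays left out the calls were less stable: ALDOC over ALDOA lost its call without any of the other 9 arrays (adjusted p up to 0.101), PFKFB4 over PFKFB3 without any of 8 (up to 0.09) and ENO2 over ENO1 without any of 7 (up to 0.09). PGAM2 over PGAM1 is among the 11 pairs (0.65, exact p = 0.0286, adjusted p = 0.0442), but lost its call without parental replicate 1 and without several other arrays (adjusted p up to 0.11). The PGAM2 probe also lay below the array median, so that the difference follows PGAM1 and is not read as a change between isoforms. The PFKFB2 and ENO2 probes, with means of 6.64 and 6.60, lay close to the array median too. Pairs with these genes, such as PFKFB3 over PFKFB2 and ENO2 over ENO1, may therefore largely follow the brighter partner. The phosphofructokinase pairs did not pass, at 0.25 for PFKM over PFKL (exact p = 0.0381, adjusted p = 0.054), 0.22 for PFKP over PFKL and -0.03 for PFKP over PFKM. HK2 over HK1 changed by only 0.06 (adjusted p = 0.658) when all probes of a gene were averaged, a mean that includes the 3 dim HK1 probes. The test treats the nucARRB1 and wtARRB1 arrays as 1 group and the GFP and parental arrays as another, and the pairs were chosen with results of these arrays known.

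**Figure D5:**
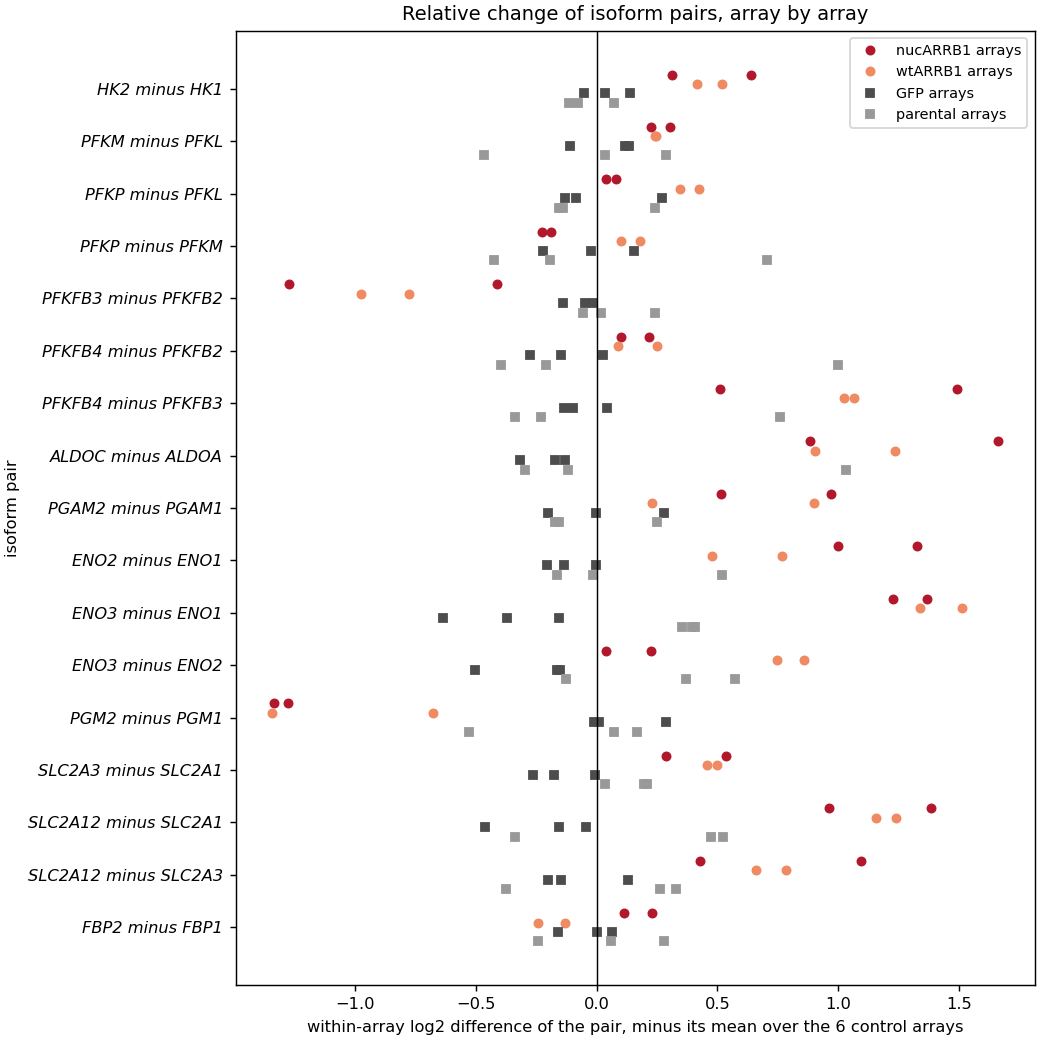
Within-array log2 difference of each of the 17 isoform pairs, minus its mean over the 6 control arrays, with 1 point per array (circles for ARRB1 and squares for control arrays). In ENO3 minus ENO1 all ARRB1 points lie to the right of all control points, in PGM2 minus PGM1 to the left, and the phosphofructokinase pairs overlap.

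Parental cells lack the vector, and no drug selection is described for them. Against parental cells 1 of the 31 genes was higher and 10 lower in nucARRB1 cells, where 3.09% of all genes were called higher and 3.56% lower. In wtARRB1 cells 2 were higher and 3 lower, where 2.48% and 2.39% were called. Without parental replicate 1, an alternative added after seeing the data, 3 were higher and 8 lower in nucARRB1 cells, where 3.31% of all genes were called higher and 3.47% lower, and 3 were higher and 2 lower in wtARRB1 cells, where 2.76% and 2.54% were. ALDOC then passed in both (0.93, adjusted p = 0.0041 in nucARRB1 and 0.87, adjusted p = 0.00828 in wtARRB1 cells) and PCK2 also in nucARRB1 cells, while PFKL (adjusted p = 0.025) and GAPDH (adjusted p = 0.0149) no longer passed in nucARRB1 cells, nor ENO1 (adjusted p = 0.0237) in wtARRB1 cells. With all 10 arrays, PFKFB3, TPI1 and ENO1 were lower and PGM1 was higher on the main probe in both ARRB1 groups against both controls, 4 comparisons that share arrays. On second probes PKM and PGAM1 were also lower in all 4, and both other PCK2 probes were higher. In wtARRB1 against parental cells those probes gave -0.71 for PKM (adjusted p = 0.00512) and -0.71 for PGAM1 (adjusted p = 0.00528). HK2, ENO3, PGM2, SLC2A12 and PCK2 in nucARRB1 cells and HK1, GAPDH, ENO3 and PKM in wtARRB1 cells passed against GFP but not against parental cells on the main probe. Between the controls 0 of the 31 genes passed in GFP against parental cells (3 at an unadjusted p under 0.05, limma), where 0.0482% of all genes were called, and the log2 changes ran from -0.65 (ALDOC) to 0.30 (HK2).

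Single arrays decided part of the calls. In nucARRB1 cells HK1, TPI1, ENO1, ENO3, PKM and PCK2 passed whichever array was left out. Without nucARRB1 replicate 1, HK2, GPI, PFKL, PFKFB3, GAPDH, PGAM1, PGM2 and SLC2A12 did not pass, and 7 of the 31 genes did. PFKFB3 then changed by -0.50 and GAPDH by -0.61. PFKL lost its call without any of 7 arrays (adjusted p up to 0.0722), HK2 without any nucARRB1 or GFP array (up to 0.0597), PGM2 without nucARRB1 replicate 1, GFP replicates 2 or 3 or parental replicates 2 or 3 (up to 0.0968), and PGM1 without nucARRB1 replicate 2 or GFP replicates 1 or 2 (up to 0.0165). GPI also lost it without GFP replicate 3 (adjusted p of GPI up to 0.0249), PFKFB3 without GFP replicates 2 or 3 (up to 0.0529) and SLC2A12 without GFP replicate 1 (up to 0.049). In wtARRB1 cells TPI1, ENO3 and PCK2 passed throughout. There HK1 and ENO1 did not pass without wtARRB1 replicate 2 (adjusted p = 0.0351 and 0.0115), PFKFB3 did not without any wtARRB1 or GFP array (up to 0.032), GAPDH did not without either wtARRB1 array or GFP replicates 1 or 3 (up to 0.0257), and PKM and PGM1 did not without wtARRB1 replicate 1 or GFP replicates 1 or 2 (up to 0.0669 and 0.0892). Without wtARRB1 replicate 1 the changes were -0.48 in PKM and 0.58 in PGM1.

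Of the genes, 6 (ALDOA, ALDOC, ENO3, PGM1, HK2 and SLC2A12) are named in the text of the study for these arrays, as known targets of the hypoxia-inducible factor HIF1A. Their values here come from the same arrays and are not independent evidence. The study also describes an increase in glycolytic gene expression in cells with high nuclear ARRB1. Against GFP cells, 3 of the 6 were higher in nucARRB1 cells (ENO3, PGM1 and SLC2A12) and 1 lower (HK2), and in wtARRB1 cells 2 were higher (ENO3 and PGM1) and 0 lower. The tally depends on the control. Against parental cells only PGM1 of the 6 was higher, in both ARRB1 groups. There ALDOA was lower in nucARRB1 cells (-0.68, adjusted p = 0.00286) and HK2 did not pass (adjusted p = 0.377). HK2 and most other glycolytic genes that passed against GFP cells were lower, the other direction, though the second HK2 probe gave 0.00 in nucARRB1 cells. The study also reports real-time PCR of selected genes and higher glucose uptake and lactate secretion in nucARRB1 cells. Neither is measured by these arrays, so lower RNA of these genes is not read as lower glycolysis. HK1, PFKFB3, TPI1, GAPDH, ENO1, PKM and PCK2, the other genes called in both ARRB1 groups, are not among the 6.

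Other genes of the same pathways were read in the same fit. Of 17 further genes listed with glycolysis and measured, 4 were lower in nucARRB1 cells and 0 higher, and 1 was lower in wtARRB1 cells. Over all genes 4.97% were called higher and 5.89% lower in nucARRB1 cells, and 4.26% and 4.7% in wtARRB1 cells. Whether this list or those below differ from these shares was not tested. Counts of 0 or 1 in so few genes cannot show it. LDHA, the lactate dehydrogenase subunit that turns pyruvate to lactate and a known hypoxia target, fell in nucARRB1 cells (-0.97 ± 0.16, adjusted p = 0.00071) and gave -0.56 ± 0.16, adjusted p = 0.0429 in wtARRB1 cells. The study measured LDHA by real-time PCR in GFP and nucARRB1 cells over a hypoxia time course, and those values were not compared here. MPC2, a subunit of the mitochondrial pyruvate carrier, fell in nucARRB1 (-0.60 ± 0.12, adjusted p = 0.00232) and wtARRB1 cells (-0.51 ± 0.12, adjusted p = 0.0094). PGAM5, a mitochondrial phosphatase named after the mutases, fell in nucARRB1 cells (-0.82 ± 0.17, adjusted p = 0.00429), and so did PGAM4 (-0.75 ± 0.15, adjusted p = 0.00312), the near-copy of PGAM1. Of these 4 genes, PGAM4 may repeat the reading of PGAM1, and MPC2 and PGAM5 are not glycolytic enzymes. Of 7 further genes of gluconeogenesis 1 fell in both groups: SLC37A4, the transporter that carries glucose-6-phosphate into the endoplasmic reticulum, at -1.23 ± 0.14, adjusted p = 2.36e-05 in nucARRB1 and -0.97 ± 0.14, adjusted p = 0.000261 in wtARRB1 cells. Among 13 further glucose transporters and 21 further glycogen genes 0 passed in either comparison by limma (2 and 6 of them at an unadjusted p under 0.05 in nucARRB1 cells, and 2 and 4 in wtARRB1 cells).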

How the data were processed

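Total RNA of the 10 samples was labelled as biotinylated cRNA and read on Illumina BeadChips. The authors used beadarray in R for quality control and quantile normalisation, and deposited log2 values per probe before and after normalisation. Whether background was subtracted is not given in the sources used here. The log2 table without normalisation (array medians of 6.22 to 6.45) was quantile-normalised in limma 3.58.1 under R 4.3.3, and the result differed from the deposited normalised values by at most 0.0232. All 48801 probes were fitted with 4 group means (lmFit and eBayes, two-sided, with 9.82 prior and 6 residual degrees of freedom), without a filter. Symbols came from the platform annotation through Entrez IDs: 27576 probes had 1 symbol, 13 several and 21212 none. The fit was tested on simulated data. Isoform pairs were compared with scipy by exact permutation. Per-array values were given for members that passed and for isoforms of the HK, PFK, ALDO, ENO and PGM steps. The members, pairs and lists were chosen with earlier results of these data known. Arrays carry no counting depth, and their number limits the precision. Alternatives covered normalisation, dim probes, the probe that stands for a gene, variance moderation, the control group, the threshold and single arrays. Sequences are from RefSeq (GRCh38.p14), and the proteins were not analysed here. Replicate numbers do not pair the arrays, as described with the alternatives.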

Additional observations from a re-analysis of the deposited data

How the results depend on the processing

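No called gene changed direction under any alternative or with any array left out. The count of members that passed in nucARRB1 against GFP cells was 15. It was 15 with the deposited values and with a filter on dim probes, 14 with median scaling and with only the compared groups, 12 with a trend in the variance moderation, 11 with the mean of all probes of a gene and with parental cells as the control, 10 without normalisation, 16 at a false discovery rate of 5%, and 7 (without nucARRB1 replicate 1) to 16 with an array left out. In wtARRB1 against GFP cells the count was 9. It was 5 with parental cells as the control, 5 (without wtARRB1 replicate 1 or GFP replicate 1) to 11 with an array left out, 6 to 13 under the other alternatives with 13 at a false discovery rate of 5%, and 0 members passed between the ARRB1 groups with another normalisation, the filter, the mean of all probes, the variance trend, the replicate block or an array left out, the alternatives run for that comparison. With the mean of all probes of a gene HK1 and PFKFB3 lost their calls in both groups, HK2 and PFKL in nucARRB1 and PKM in wtARRB1 cells. Without normalisation ENO1 and PGM1 lost theirs in both groups and HK2, PGM2 and SLC2A12 in nucARRB1 cells. With the variance trend HK2, PFKL and PGM2 did not pass in nucARRB1 cells. Without normalisation the median of all genes shifted by -0.12 in wtARRB1 cells, so changes there are relative to that shift.

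Replicate numbers are in the labels, but nothing ties equal numbers together. The deviations of same-numbered arrays from their group means correlated at -0.0838 to 0.0544 over 13 pairs of arrays, with 0 pairs over 0.1. With the replicate number as a block, 13 members passed in nucARRB1 and 8 in wtARRB1 cells, with HK2 and PGM2 lost in nucARRB1 and GAPDH in wtARRB1 cells.

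For the 7 isoform pairs that did not overlap, adjusted p-values with an array left out were 0.0245 to 0.0578, the higher value arising where 3 ARRB1 arrays allow fewer regroupings. Against GFP or parental arrays alone 4 against 3 arrays cannot give a p under 0.0571, so no call was possible. PFKFB4 over PFKFB3 and ALDOC over ALDOA lost their calls with the mean of all probes (adjusted p = 0.0648 each). Signal over background is not measured in the files used here, which limits what can be said of dim probes.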

Other observations

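GAPDH, TPI1 and ENO2 are neighbours on chromosome 12 (GRCh38.p14, from position 6534517 to 6923697). GAPDH and TPI1 fell in both ARRB1 groups. ENO2, whose probe lay close to the array median at a mean of 6.60, had changes of 0.40 in nucARRB1 and 0.07 in wtARRB1 cells and did not pass, and its difference from GAPDH and TPI1 was not tested. FBP1 and FBP2 are neighbours on chromosome 9, and neither had a probe clearly above the array median.

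Replicates of the ARRB1 groups differed by over 0.5 log2 units in 6 members in nucARRB1 cells (PFKFB3, ALDOC, GAPDH, SLC2A1, SLC2A12 and PCK2) and in 3 in wtARRB1 cells (PGAM1, PKM and PGM1). In nucARRB1 cells replicate 1 was the higher one in ALDOC, SLC2A1 and SLC2A12 and the lower one in PFKFB3, GAPDH and PCK2. SLC2A1 is a case in which these arrays disagree in direction against GFP cells, with 9.13 on replicate 1 and 8.39 on replicate 2 in nucARRB1 cells, against 8.91, 8.99 and 8.92 in GFP cells.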
